A study of Mus musculus with 12 samples.

Results

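The genes described here are those named as nuclear subunits of the oxidative phosphorylation complexes. They were chosen by symbol: rows beginning Nduf followed by a, b, c, s or v and a number (complex I), Sdha to Sdhd (complex II), Uqcr or Cyc1 (complex III), Cox4 to Cox8 (complex IV) and Atp5 (complex V), leaving out symbols marked as pseudogenes with -ps. Of 55291 rows, 89 had such a symbol, and 83 of them had a mean of 10 or more raw counts over the 12 libraries: 39 of complex I, 4 of complex II, 9 of complex III, 14 of complex IV and 17 of complex V. All 83 passed the filter on low counts and were tested among 19010 genes. Of the 83, 4 (Ndufs6b, Cox6c2, Ndufb4c and Ndufa11b) are annotated as pseudogene copies, and they are counted with the subunit genes below.

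Bulk RNA was sequenced from mouse CD8+ T cells, the cytotoxic lymphocytes, of lymph node and spleen, with n = 3 mice per group. The 4 groups were Dock8 KO cells in collagen gel (KO gel), Dock8 KO cells in media (KO media), wild-type cells in gel (WT gel) and wild-type cells in media (WT media). Cells of all 4 groups had first gone through 3 days of activation and expansion in culture; they then spent 24 h in media or in a bovine collagen gel of 2 mg/mL, from which they were recovered. Dock8 encodes a guanine nucleotide exchange factor for Cdc42. The sources used here do not state the strain, the age or the design of the knockout allele. In bulk RNA, fewer cells of a type and less RNA per cell cannot be told apart, and the p-values measure the spread between these libraries.

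Oxidative phosphorylation moves electrons from NADH and succinate through complexes I to IV to oxygen, and complex V, the ATP synthase, uses the resulting proton gradient to make ATP. Complexes I, III, IV and V are built from subunits of both genomes, so nuclear and mitochondrial transcripts meet in the same enzyme; complex II is encoded in the nucleus alone. Activated T cells raise mitochondrial content and respiration while they also take up glycolysis, and respiration is used by CD8+ T cells during proliferation and later as memory cells.

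Dock8 itself stood at 168, 161 and 158 CPM (counts per 1000000, with library totals scaled by the trimmed mean of M values) in KO gel, at 126, 109 and 125 CPM in KO media, at 379, 411 and 450 CPM in WT gel and at 363, 418 and 443 CPM in WT media. The KO libraries were all below the WT libraries, and none was at 0. Totals ran from 28483064 to 61390702 counts per library. The 3 KO gel libraries stood apart from the other 9 in the number of genes detected at a common depth of 28483064 counts, with 28362 to 30104 genes in KO gel and 24336 to 25142 in the other groups, and in the share of counts on long intergenic and unconfirmed transcripts, 0.858 to 0.923% against 0.555 to 0.808%. The share on genes annotated as ribosomal RNA was highest in WT gel replicate 2 (11.9%) and KO media replicate 3 (8.11%), and 3.19 to 6.96% elsewhere. CD8 T cell markers (Cd3e, Cd3g, Cd8a, Cd8b1, Trac and Thy1, all 6 tested) summed to 2754 to 2890 CPM in KO gel, 2825 to 3245 CPM in KO media, 3132 to 3369 CPM in WT gel and 3117 to 3365 CPM in WT media. Erythroid and platelet markers (4 genes, 2 of them tested) summed to 8.81 to 18.0 CPM in KO gel, 3.82 to 5.64 CPM in KO media, 3.17 to 4.38 CPM in WT gel and 2.67 to 3.78 CPM in WT media; S100a9 of neutrophils was at 0 in all 12 libraries. In KO gel against KO media 1 of these 4 (Itga2b, higher) and 2 of the 6 CD8 T cell markers (Cd3g and Thy1, lower) passed. The CD4 T cell markers Cd4 and Foxp3 summed to 4.49 to 7.63 CPM in KO gel, 2.89 to 3.92 CPM in KO media, 3.30 to 6.32 CPM in WT gel and 3.65 to 6.23 CPM in WT media, and Cd4 passed as higher in KO gel than in KO media. Cd4 averaged 5.29, 3.04, 2.39 and 2.85 CPM in KO gel, KO media, WT gel and WT media. Foxp3 was lower in KO, with 0.469, 0.353, 1.92 and 1.87 CPM in the same order. Stromal markers (3 genes, 1 tested, not called) summed to 0.649 to 0.848 CPM in KO gel and 0.147 to 0.564 CPM in the other groups. Macrophage and dendritic cell markers (5 genes, 2 tested, none called in KO gel against KO media) summed to 31.3 to 45.6 CPM in KO and 12.6 to 32.4 CPM in WT libraries. Nearly all of this sum was Itgax, at 36.6, 38.1, 22.7 and 22.3 CPM on average in KO gel, KO media, WT gel and WT media. Flt3, the other gene tested, averaged 0.253 CPM or less in each group. The part of these differences in the results was not tested.

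Together the 83 subunit genes took a summed 5017, 5323 and 5263 CPM in KO gel, 6226, 6246 and 5902 CPM in KO media, 6436, 5638 and 5364 CPM in WT gel and 6777, 5743 and 5500 CPM in WT media. By this scaling every KO gel library was below every other library, by a small margin to WT gel replicate 3. As a percent of all counts the order differed: the KO gel libraries had 0.5095, 0.5435 and 0.5497%. WT gel replicate 2 was the lowest library at 0.4973%, and WT gel replicate 3, at 0.5363%, lay among the KO gel libraries. The group means were 5201 ± 162 CPM in KO gel, 6125 ± 193 CPM in KO media, 5813 ± 557 CPM in WT gel and 6007 ± 678 CPM in WT media (SD, n = 3 each), so the WT groups were spread more widely than the KO groups. With each gene's log2 CPM set relative to its own mean over the 12 libraries, the median over the 83 genes was -0.18, -0.09 and -0.11 in KO gel and 0.12, 0.12 and 0.04 in KO media. In WT gel the same median was 0.15, -0.04 and -0.13 for replicates 1, 2 and 3, and in WT media 0.24, -0.01 and -0.07. The replicate 1 libraries of WT were thus the highest of all, and WT gel replicate 3 lay among the KO gel libraries.

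**Figure D1:**
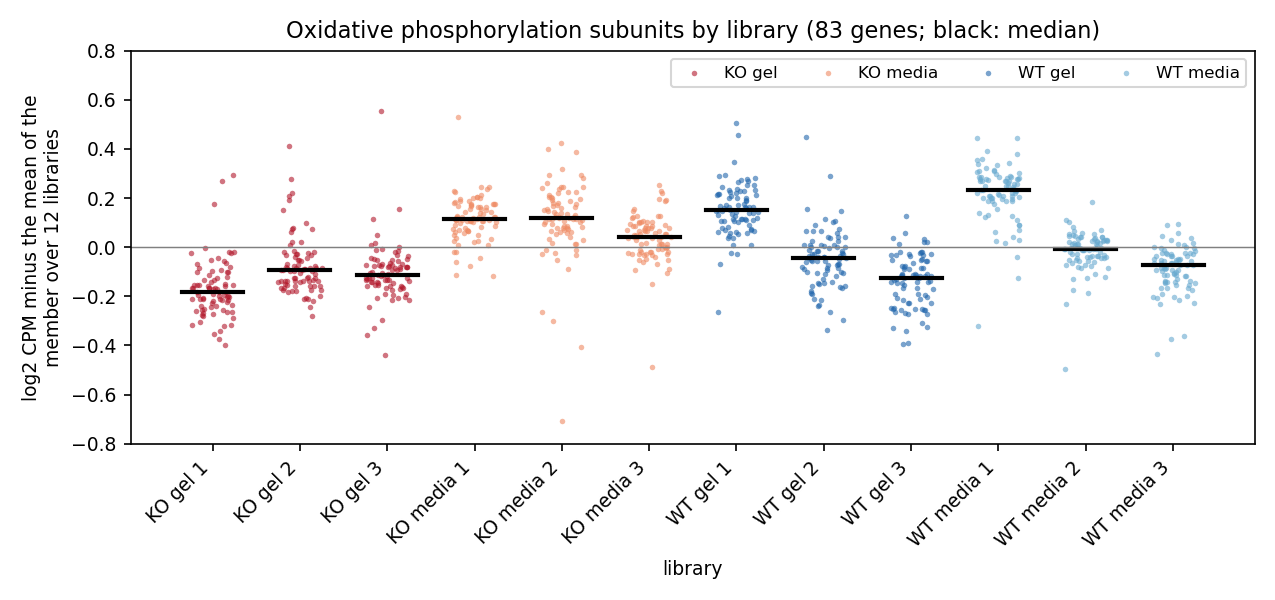
Each point is 1 of the 83 subunit genes in 1 library, as log2 CPM minus the gene's mean over the 12 libraries; black lines are the medians per library. The KO gel medians lie at -0.18, -0.09 and -0.11, all KO media medians are above 0, and the WT libraries run from 0.24 (media replicate 1) to -0.13 (gel replicate 3).

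In KO cells, 27 subunit genes were lower in gel than in media, 1 was higher (Cox6b2) and 55 did not pass the test (edgeR quasi-likelihood F test; Benjamini-Hochberg adjustment over the 19010 genes, threshold 0.05). That is 32.5% of the 83 called lower, against 9.74% of all genes tested and 16.8% of the 9919 genes at a higher level, here a mean log2 CPM of 3 or more. In all, 20.8% of the genes tested were called, which includes the 11.1% of all genes that were higher in KO gel. For 57 subunit genes all 3 KO gel libraries lay below all 3 KO media libraries, where 23.9% of all genes and 37.2% of the genes at the higher level did so. The fold changes were small and alike: 79 of 83 were negative, where 50.8% of all genes and 65.1% of genes at the higher level were. The median of the 83 was -0.24 on the log2 scale, beside -0.01 for all genes and -0.09 for genes at the higher level. By complex, 13 of 39 fell in complex I, 2 of 4 in complex II, 3 of 9 in complex III, 4 of 14 in complex IV and 5 of 17 in complex V, and the medians ran from -0.20 (complex I) to -0.26 (complex V).

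The number of genes called depended on the scaling and on single libraries, while the median did not change sign. Scaled by total counts, 4 subunit genes (4.82%) were lower, where 4.57% of all genes were, and in a test of the higher-level genes alone, 6 of 77 (7.79%) were lower, where 9.53% were. The median of the subunit genes minus that of the higher-level genes was -0.15 as tested, -0.15 with total counts and -0.16 in the narrower test. Leaving out KO gel replicate 1, 2 or 3 left 3, 8 and 7 lower subunit genes (3.61%, 9.64% and 8.43%), where 4.88%, 6.43% and 5.71% of all genes were lower. Leaving out KO media replicate 1, 2 or 3 left 5, 8 and 25 (6.02%, 9.64% and 30.1%), where 6.14%, 7.55% and 7.7% of all genes were lower. Most subunit genes are higher-level genes, whose share called lower is not given for the fits that left out libraries. An excess over all genes there is therefore not an excess over genes of like level. With WT gel replicate 2 and KO media replicate 3, the libraries of most ribosomal RNA, both left out, 4 (4.82%) were lower, where 4.7% of all genes were. The share of subunit genes was thus near or below that of all genes with total counts, among the higher-level genes, without the libraries rich in ribosomal RNA, without KO gel replicate 1 and without KO media replicate 1. None of the 28 called genes changed direction under any alternative, and Atp5g2 and Cox5a alone passed in all 6 fits that left out 1 library. Atp5o, Cox7a2, Ndufa3 and Uqcrb passed in 0 of these 6 fits. Atp5c1, Atp5h, Cox4i1, Ndufa4, Ndufb5, Ndufb7, Ndufb8, Ndufb11, Ndufv2, Sdhb and Uqcrc2 passed in 1 of the 6.

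**Figure D2:**
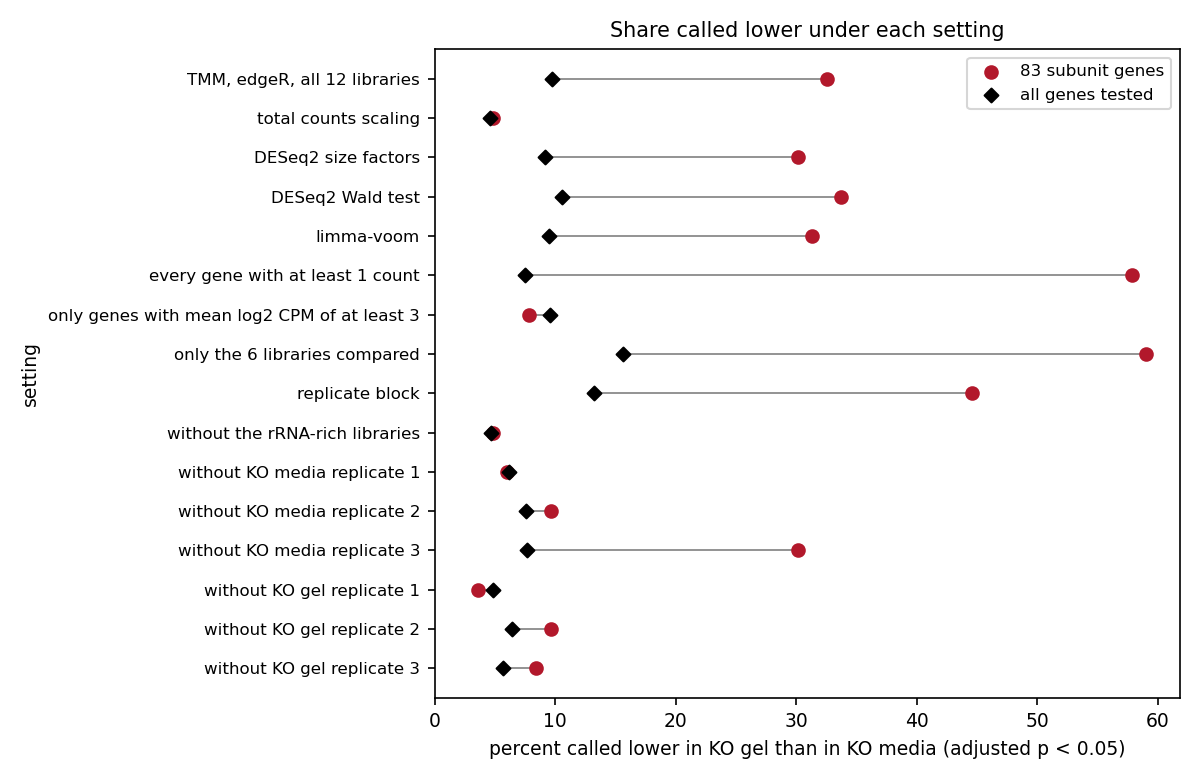
Percent of the subunit genes (red circles, 83 genes, 77 where only higher-level genes were tested) and of all genes tested (black diamonds) called lower in KO gel than in KO media at adjusted p < 0.05, for each scaling, test, filter or set of libraries. The share of subunit genes is 32.5% against 9.74% as tested, and 4.82% against 4.57% with scaling by total counts.

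In complex I, which takes electrons from NADH, 3 of the core subunits encoded in the nucleus, which form the electron path, fell in KO gel. Ndufv1, the subunit that binds NADH and the flavin cofactor, had 57.9, 67.3 and 61.9 CPM in KO gel and 78.1, 83.2 and 76.0 CPM in KO media. The groups did not overlap, and the log2 fold change was -0.34 ± 0.10 (SE, adjusted p = 0.0295, edgeR). Ndufv2, an iron-sulfur subunit beside it, had 63.1, 65.5 and 66.0 CPM in KO gel and 79.7, 84.9 and 75.7 CPM in KO media, a log2 fold change of -0.31 ± 0.08 (SE, adjusted p = 0.0216, edgeR). Ndufs8, which carries iron-sulfur clusters near the ubiquinone site, had 29.4, 32.3 and 33.7 CPM in KO gel and 41.7, 38.8 and 39.3 CPM in KO media, a log2 fold change of -0.33 ± 0.10 (SE, adjusted p = 0.0259, edgeR). In each of the 3 genes every KO gel library was below every KO media library. Ndufs1, Ndufs3 and Ndufs7, also core subunits of the matrix arm, had log2 fold changes of -0.11, -0.18 and -0.23 that did not pass (adjusted p = 0.139, 0.101 and 0.107, edgeR), although none of these overlapped between the groups.

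Among the 29 accessory subunits of complex I, which surround the core, 10 fell and 19 did not pass. Ndufc2, a membrane-arm subunit on chromosome 7 (GRCm38, 97400003 to 97407802), had 30.7, 31.7 and 29.1 CPM in KO gel, against 36.0, 46.8 and 38.0 CPM in KO media, with KO media replicate 2 well above its fellows. Its log2 fold change was -0.40 ± 0.10 (SE, adjusted p = 0.0121, edgeR), the largest fall in complex I; without KO media replicate 2 it was -0.28, and without KO gel replicate 3 it did not pass (adjusted p = 0.0525, edgeR). The other 9 were Ndufa3, Ndufa4, Ndufa9, Ndufa10, Ndufb5, Ndufb7, Ndufb8, Ndufb10 and Ndufb11, with log2 fold changes from -0.24 (Ndufb7) to -0.35 (Ndufb8). Ndufa4 carries a complex I name and is now regarded as a subunit of complex IV. Ndufv3 had 48.1, 47.5 and 46.1 CPM in KO gel and 51.2, 38.0 and 49.5 CPM in KO media, and its log2 fold change was 0.03 ± 0.10 (SE).

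Complex II oxidises succinate and belongs to the tricarboxylic acid cycle as well. Its iron-sulfur subunit Sdhb had 80.5, 82.2 and 78.0 CPM in KO gel and 98.0, 97.8 and 94.9 CPM in KO media, a log2 fold change of -0.27 ± 0.08 (SE, adjusted p = 0.0286, edgeR). Sdhc, which anchors the enzyme in the membrane, had 42.7, 45.8 and 44.1 CPM in KO gel and 55.8, 55.0 and 54.3 CPM in KO media, a log2 fold change of -0.32 ± 0.08 (SE, adjusted p = 0.0168, edgeR). In both, the 2 groups were clearly apart and tight. The flavoprotein Sdha (-0.13, adjusted p = 0.126) and the second anchor Sdhd (-0.23, adjusted p = 0.153) did not pass by edgeR, again without overlap between the groups.

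Complex III hands electrons to cytochrome c. Uqcrfs1, the Rieske iron-sulfur protein (chromosome 13, GRCm38, 30540308 to 30545362), had 42.4, 47.8 and 44.4 CPM in KO gel, 58.9, 66.1 and 52.5 CPM in KO media, 68.2, 60.4 and 60.9 CPM in WT gel and 67.8, 54.3 and 53.1 CPM in WT media. All 3 KO gel libraries were below the other 9. It fell in KO gel against KO media by 0.40 ± 0.10 on the log2 scale (SE, adjusted p = 0.0150, edgeR), a call kept in 3 of the 6 fits that left out 1 library: it was lost without KO gel replicate 1, KO gel replicate 3 or KO media replicate 2 (adjusted p = 0.0627 at most). Uqcrc2, a core protein, and Uqcrb, a small subunit at the ubiquinone site, fell by 0.27 and 0.28. Cyc1, cytochrome c1, had 40.6, 43.9 and 44.6 CPM in KO gel and 57.6, 55.5 and 49.3 CPM in KO media; its log2 fold change of -0.33 ± 0.11 (SE) just missed the threshold (adjusted p = 0.0509, edgeR). Uqcrc1 (-0.16) and the other small subunits did not pass.

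In complex IV, cytochrome c oxidase, the catalytic core is mitochondrially encoded and the nuclear subunits surround it. Cox5a (chromosome 9, GRCm38, 57521274 to 57532426), a regulatory subunit on the matrix side, had 48.5, 53.5 and 53.3 CPM in KO gel, 72.9, 72.3 and 68.9 CPM in KO media, 71.8, 64.9 and 51.9 CPM in WT gel and 72.1, 63.2 and 57.0 CPM in WT media. KO gel lay far below KO media, while WT gel replicate 3 reached into the KO gel range. Its log2 fold change between KO gel and KO media was -0.46 ± 0.11 (SE, adjusted p = 0.00805, edgeR). Cox5b, Cox7a2 and Cox4i1 fell by 0.31, 0.30 and 0.27. The remaining widely expressed subunits (Cox6a1, Cox6b1, Cox6c, Cox7a2l, Cox7b, Cox7c and Cox8a) had log2 fold changes between -0.19 and -0.30 that did not pass.

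Several complex IV subunits exist as tissue forms. Cox6b2, the testis form of Cox6b1, was the single subunit gene that rose: it had 2.80, 3.29 and 3.64 CPM in KO gel, 2.28, 1.49 and 1.74 CPM in KO media, 3.41, 3.38 and 2.49 CPM in WT gel and 1.97, 2.46 and 1.81 CPM in WT media. In both genotypes the gel libraries were above the media libraries without overlap. The log2 fold change was 0.80 ± 0.19 (SE, adjusted p = 0.0108, edgeR; 0.0508 without KO gel replicate 3, the highest of the 6 fits that left out 1 library) in KO and 0.57 ± 0.20 (SE, adjusted p = 0.812, edgeR) in WT, and the difference between them was 0.24 (adjusted p = 0.672). These levels rest on 61 to 146 counts per library. Cox7a1, the heart and muscle form of Cox7a2, stood at 0.534 to 1.07 CPM and did not pass in any comparison. The muscle forms Cox6a2 and Cox8b, the lung form Cox4i2, and Cox7b2, Cox8c and Ndufa4l2 had a mean below 10 counts and were not tested; Cox6a2 was just outside with a mean of 5.75 counts. Low but above the limit were Cox7a1 with a mean of 33.0 counts and the annotated pseudogene copies Ndufa11b with 14.7 and Ndufs6b with 60.3.

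**Figure D3:**
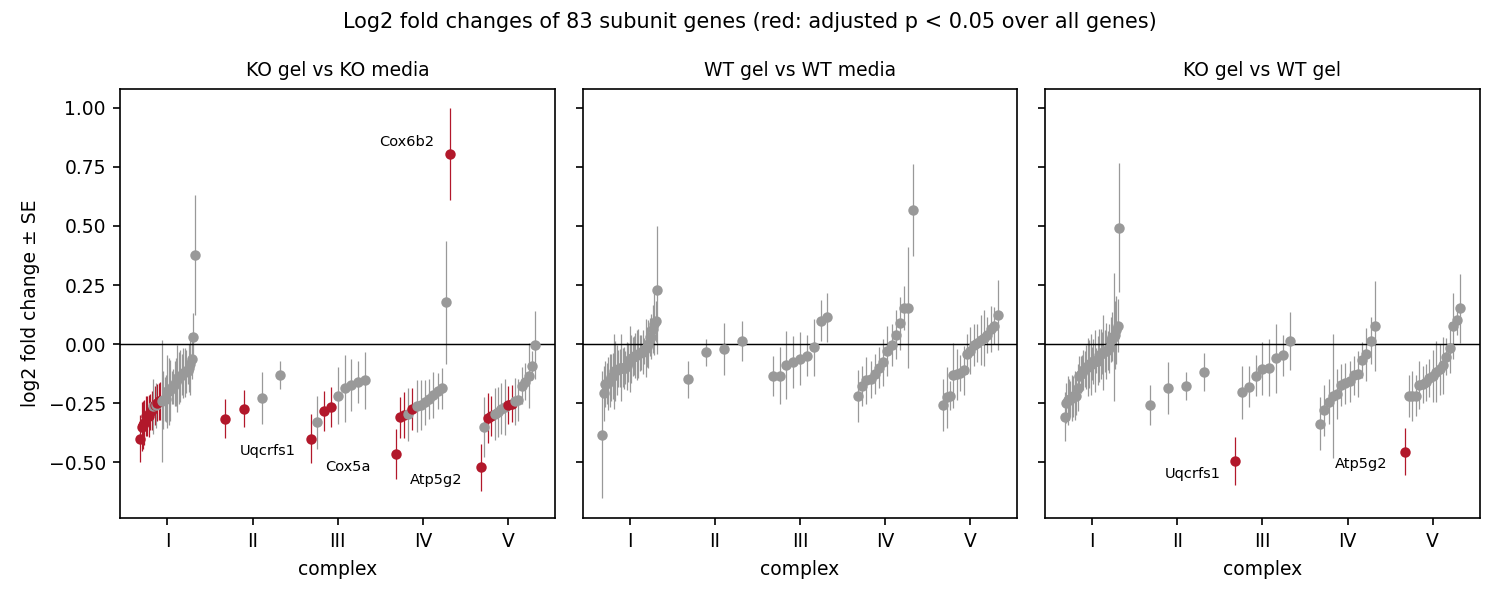
Log2 fold change ± SE of each of the 83 subunit genes, by complex, in KO gel against KO media, WT gel against WT media and KO gel against WT gel; red points passed at adjusted p < 0.05 over all genes. In KO gel against KO media 79 of 83 lie below 0, where 50.8% of all genes and 65.1% of higher-level genes do. Cox6b2 at 0.80 is the only red point above 0 there.

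Complex V consists of the F1 head that makes ATP, a peripheral stalk, and a membrane part with a ring of c subunits that turns as protons pass. Of the 5 genes of the F1 head, Atp5c1, the rotating central shaft, fell in KO gel by 0.31 ± 0.09 (SE, adjusted p = 0.0223, edgeR), with 162, 165 and 163 CPM in KO gel and 201, 209 and 195 CPM in KO media. The catalytic subunit Atp5b (-0.24, adjusted p = 0.0968) and Atp5a1, also of the F1 head (-0.24, adjusted p = 0.0718), did not pass by edgeR. Their groups did not overlap, with 532, 610 and 585 CPM of Atp5b in KO gel and 697, 686 and 661 CPM in KO media. Atp5e had the lowest log2 fold change of the F1 head, -0.35, without overlap, and did not pass as tested. It passed with every gene of at least 1 count (adjusted p = 0.0001045, edgeR) and with the replicate number as a block (adjusted p = 0.0377, edgeR). In the peripheral stalk 3 of 4 fell (Atp5o, Atp5h and Atp5pb, by 0.31, 0.26 and 0.25), and none of the 5 accessory membrane subunits passed. Of the 6 fits that left out 1 library, Atp5o passed in 0, Atp5h in 1 and Atp5pb in 2.

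The c subunit is encoded by 3 genes, Atp5g1, Atp5g2 and Atp5g3, which make the same mature protein with different import sequences. Atp5g2 (chromosome 15, GRCm38, 102662864 to 102672352) had 19.6, 20.95 and 19.8 CPM in KO gel, 29.3, 29.6 and 27.6 CPM in KO media, 29.6, 27.1 and 26.1 CPM in WT gel and 31.0, 25.8 and 22.3 CPM in WT media. The 3 KO gel libraries were the lowest of the 12 and close to each other. Its log2 fold change between KO gel and KO media, -0.52 ± 0.10 (SE, adjusted p = 0.00287, edgeR), was the largest fall of the 83 genes. Atp5g1 did not share it: 8.08, 9.79 and 9.35 CPM in KO gel and 8.78, 9.81 and 8.69 CPM in KO media gave 0.00 ± 0.14 (SE, adjusted p = 0.994, edgeR), with the sign of that value changing between settings. Atp5g3 had 47.0, 51.6 and 49.0 CPM in KO gel and 50.5, 69.6 and 57.6 CPM in KO media, a log2 fold change of -0.27 ± 0.12 (SE, adjusted p = 0.120, edgeR), with overlap between the groups. Per kilobase of the shortest principal transcript, Atp5g3 was the most abundant of the 3 at 74.3 RPKM over all libraries, then Atp5g2 at 58.4 RPKM and Atp5g1 at 14.2 RPKM. Differences of response between the 3 genes were not tested.

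**Figure D4:**
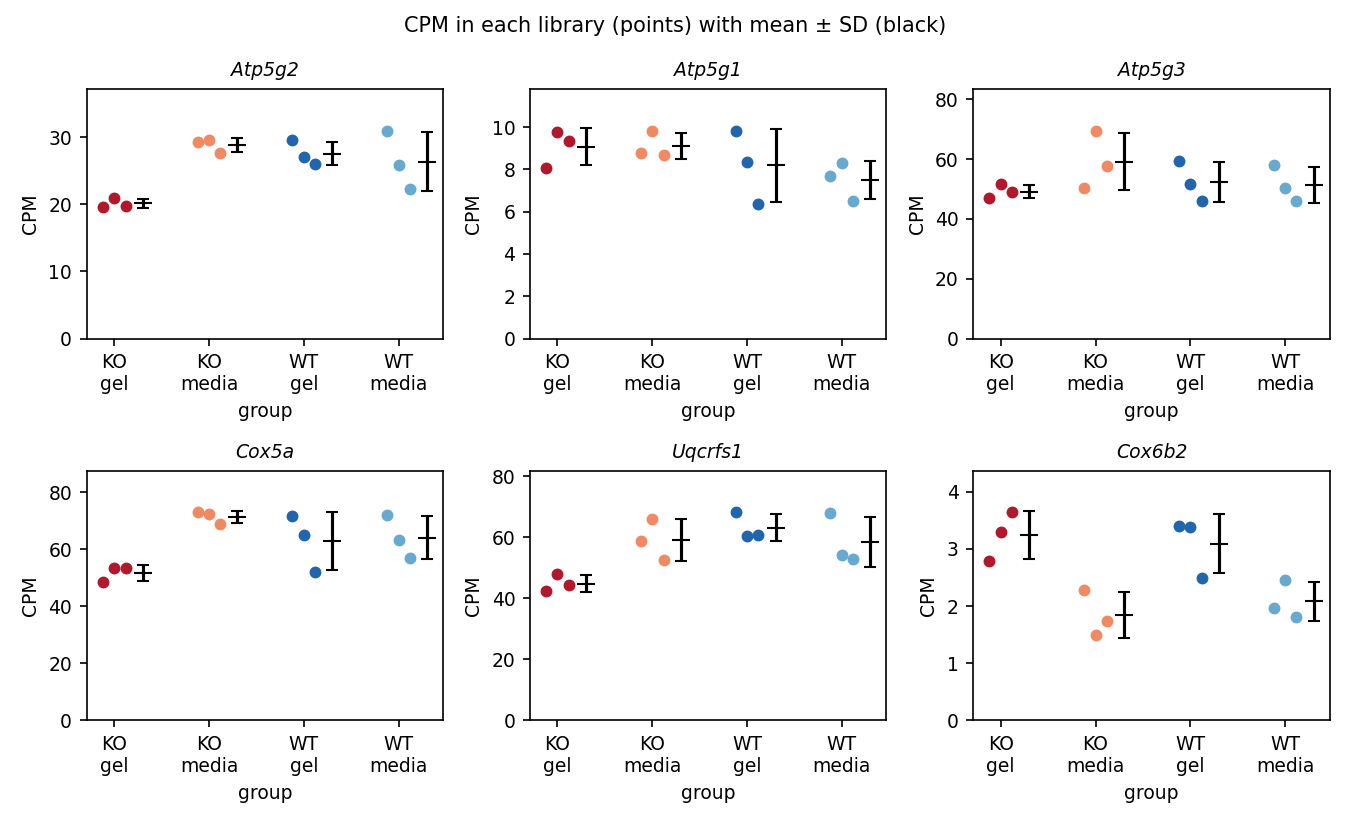
CPM of the 3 genes of the ATP synthase c subunit and of Cox5a, Uqcrfs1 and Cox6b2 in each library (points), with mean ± SD in black (n = 3). Atp5g2 lies at 19.6 to 20.95 CPM in KO gel and at 22.3 CPM or more in every other library, whereas Atp5g1 overlaps between KO gel and KO media.

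The promoters of these 3 genes and of Uqcrfs1 and Cox5a, the called genes of largest fall in complexes III and IV, are shown because they differ in matches to the motif of NRF1, a transcription factor of respiratory genes. Each runs from 250 bases before to 50 bases after the annotated start on the gene's own strand, 5′ to 3′, taken from RefSeq (GRCm38.p6), with matches to the NRF1 motif (GCGC, any base, TGCGC) on either strand in capitals.
Atp5g2: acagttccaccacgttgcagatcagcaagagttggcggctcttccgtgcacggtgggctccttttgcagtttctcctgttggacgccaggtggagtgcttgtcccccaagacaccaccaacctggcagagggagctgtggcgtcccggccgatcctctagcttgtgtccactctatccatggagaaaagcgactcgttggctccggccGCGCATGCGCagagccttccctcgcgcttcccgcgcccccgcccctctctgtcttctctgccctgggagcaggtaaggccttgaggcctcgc
Atp5g1: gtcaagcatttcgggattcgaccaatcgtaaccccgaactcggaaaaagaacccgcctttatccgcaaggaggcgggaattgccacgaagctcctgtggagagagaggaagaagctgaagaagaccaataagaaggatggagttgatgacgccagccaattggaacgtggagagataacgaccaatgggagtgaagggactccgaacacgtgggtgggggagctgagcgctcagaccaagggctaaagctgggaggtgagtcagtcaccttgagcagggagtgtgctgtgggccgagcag
Atp5g3: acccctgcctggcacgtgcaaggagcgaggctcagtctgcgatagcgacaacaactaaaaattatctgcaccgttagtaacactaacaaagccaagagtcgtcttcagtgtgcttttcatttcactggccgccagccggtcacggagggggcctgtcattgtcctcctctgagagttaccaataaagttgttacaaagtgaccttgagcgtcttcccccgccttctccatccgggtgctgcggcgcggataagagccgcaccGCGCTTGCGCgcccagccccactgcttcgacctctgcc
Uqcrfs1: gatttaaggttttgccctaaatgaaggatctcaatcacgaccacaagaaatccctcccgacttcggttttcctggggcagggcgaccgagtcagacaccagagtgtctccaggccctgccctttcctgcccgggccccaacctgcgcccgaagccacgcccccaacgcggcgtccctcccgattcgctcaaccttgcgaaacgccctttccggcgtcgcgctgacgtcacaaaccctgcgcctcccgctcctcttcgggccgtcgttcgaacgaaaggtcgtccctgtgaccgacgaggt
Cox5a: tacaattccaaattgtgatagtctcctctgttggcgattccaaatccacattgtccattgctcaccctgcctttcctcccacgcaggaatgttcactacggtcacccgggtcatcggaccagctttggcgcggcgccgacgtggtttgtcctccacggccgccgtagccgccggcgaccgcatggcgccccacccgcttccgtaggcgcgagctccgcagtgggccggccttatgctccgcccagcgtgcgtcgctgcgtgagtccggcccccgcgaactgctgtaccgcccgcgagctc
They lie on chr15:102670998-102671297, chr11:96075582-96075881, chr2:73911277-73911576 and chr13:30545267-30545566 for Atp5g2, Atp5g1, Atp5g3 and Uqcrfs1, of which all 4 are on the minus strand, and on chr9:57520982-57521281 on the plus strand for Cox5a. The match in Atp5g2 begins 42 bases before the RefSeq start, and that in Atp5g3 lies just after the start. The Atp5g2 window lies wholly within the GENCODE span of the gene given above, so the outermost starts of the annotations differ. No such letters stand in the other 3 windows. Atp5g2 fell and Atp5g3 did not pass, and Uqcrfs1 and Cox5a fell without a match.

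Over all subunit genes other than annotated copies, 66 of 79 matched a promoter, and 17 of these (25.8%) held the NRF1 motif, against 5.19% of 27025 genes with a promoter and 11.1% of the 10863 of those that were tested. A YY1 motif, AANATGGCG, stood in 15.2% of the 66, against 5.71% of tested genes, and an ETS motif bound by GABPA, CCGGAAGT, in 7.58%, against 8.90%. All were searched on both strands; the 3 motifs were counted separately. Of the 17 genes with the NRF1 motif 4 were lower in KO gel than in KO media, with a median of -0.20, and of the 49 without it 19 were lower, with a median of -0.24; the difference was not tested. These are descriptions of letters in a window and not of binding.

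In WT cells none of the 83 genes passed between gel and media (0.0368% of all genes did, 7 in number), 3 had an unadjusted p under 0.05, and DESeq2 and limma-voom also called 0. The median log2 fold change was -0.05, beside -0.01 for all genes, and changed sign to 0.05 without WT media replicate 1 and to 0.01 without WT gel replicate 3. By their correlations, WT libraries of equal replicate number were taken as paired. In a fit of these 6 libraries with the replicate number as a block 9 subunit genes passed, 7 lower and 2 higher in gel. Of all genes 1.64% were lower and 2.08% higher in that fit. The 7 were Atp5e, Atp5j2, Atp5l, Cox7a2l, Ndufa2, Ndufa4 and Sdhb, with log2 fold changes from -0.14 (Sdhb) to -0.25 (Atp5j2). The 2 were Cox6a1 (0.15 ± 0.04 SE, adjusted p = 0.0362, edgeR) and Cox6b2 (0.58 ± 0.15 SE, adjusted p = 0.0361, edgeR). With the block and all 12 libraries in the fit, 0 passed.

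Between KO media and WT media none of the 83 genes passed, 2 had an unadjusted p under 0.05, and 0.189% of all genes were called; DESeq2 and limma-voom called 0 as well. The median log2 fold change was 0.04, 0.15 without WT media replicate 1 and -0.02 without WT media replicate 3. Uqcrb was the nearest to a call, with 29.8, 29.9 and 30.2 CPM in KO media and 26.5, 22.7 and 21.9 CPM in WT media, a log2 fold change of 0.34 ± 0.09 (SE, adjusted p = 0.279, edgeR) without overlap. It passed without WT media replicate 1, and when every gene with at least 1 count was tested.

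In gel, 2 subunit genes were lower in KO than in WT, Uqcrfs1 and Atp5g2, and none was higher, which is 2.41% called lower against 7.71% of all genes. Uqcrfs1 fell by 0.49 ± 0.10 on the log2 scale (SE, adjusted p = 0.00603, edgeR), and Atp5g2 fell by 0.45 ± 0.10 (SE, adjusted p = 0.00830, edgeR). Both passed in all 15 alternatives run for this comparison, with log2 fold changes from -0.39 to -0.55 for Uqcrfs1 and from -0.35 to -0.50 for Atp5g2. The median of the 83 genes was -0.11, and relative to the genes at the higher level -0.04. Without WT gel replicate 1, the WT gel library of highest subunit levels, these values were -0.04 and 0.02, and with total counts the median was -0.003. Without WT gel replicate 3, the WT gel library of lowest subunit levels, 10 genes (12.1%) were lower, where 7.39% of all genes were. This comparison uses the same KO gel libraries as that of KO gel with KO media, so the 2 are not independent.

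The difference between the gel responses, KO minus WT, passed for Atp5g2 alone, at -0.58 ± 0.14 on the log2 scale (SE, adjusted p = 0.0370, edgeR), as it was lower in gel in KO (-0.52) and not in WT (0.06). Of all genes tested 3.35% passed, and 1.45% of all were on the negative side. Of the 83 genes, 13 had an unadjusted p under 0.05 and the median was -0.14, beside 0.00 for all genes and -0.07 for genes at the higher level. Atp5g2 kept its call in 2 of 12 fits that left out 1 library (without WT media replicate 1 or WT gel replicate 3) and lost it in the other 10, with adjusted p from 0.00239 to 0.0979. Without WT media replicate 1, in which the subunit genes stood highest, 17 genes (20.5%) passed, all negative, where 4.91% of all genes passed on that side. Uqcrfs1 came next (-0.51 ± 0.15 SE, adjusted p = 0.0702, edgeR), then Cox5a at -0.44 (adjusted p = 0.127, edgeR).

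The 13 mitochondrially encoded subunits, partners of the nuclear ones in the same complexes, had positive fold changes at the median in KO gel. They summed to 20280 ± 1746 CPM in KO gel, 16070 ± 3883 CPM in KO media, 14590 ± 2069 CPM in WT gel and 12950 ± 1289 CPM in WT media (SD, n = 3 each), with KO media replicate 2, at 20270 CPM, inside the range of the KO gel libraries of 19170 to 22290 CPM. In KO gel against KO media 3 of 13 rose (mt-Co2, mt-Cytb and mt-Nd1, by 0.55, 0.43 and 0.41 on the log2 scale) and none fell, with a median of 0.41, where 11.1% of all genes were called higher. Against WT gel 6 of 13 rose in KO gel, with a median of 0.49, where 7.12% of all genes did. The median was also positive in KO media against WT media (0.30) and in WT gel against WT media (0.14), with 0 of 13 called in either. For the difference of the gel responses, KO minus WT, 0 of 13 passed, with a median of 0.25. Leaving out 1 library gave 1 rise (without KO gel replicate 3) or 2 against KO media, except 9 without KO media replicate 2, and 3 to 6 against WT gel, with 3 without KO gel replicate 1 or 3 or WT gel replicate 1 or 3. Of all genes 6.3 to 8.6% were higher in these fits against KO media, and 4.3 to 6.69% against WT gel. The median against KO media was 0.22 without KO media replicate 1 and 0.57 without KO media replicate 2.

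**Figure D5:**
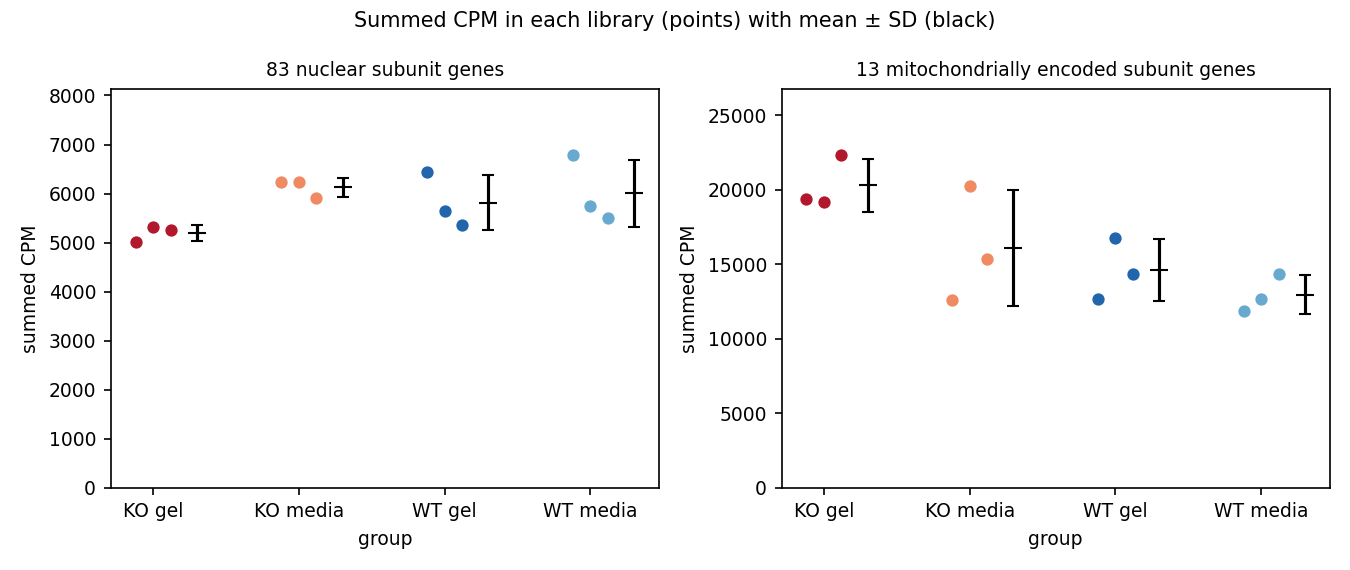
Summed CPM of the 83 nuclear subunit genes (left) and of the 13 mitochondrially encoded subunit genes (right) in each library (points), with mean ± SD in black (n = 3). The nuclear sum is lowest in the KO gel libraries at 5017 to 5323 CPM, which does not hold as a percent of all counts. The mitochondrial sum of the KO gel libraries, 19170 to 22290 CPM, overlaps with KO media.

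Other mitochondrial genes had fold changes of similar size in KO gel against KO media, where, as above, 9.74% of all genes and 16.8% of higher-level genes were lower. In the tricarboxylic acid cycle and pyruvate dehydrogenase 7 of 18 fell (median -0.21), among them citrate synthase Cs, which fell by 0.34 to 201 CPM on average in KO gel, against 255 CPM in KO media, and fumarase Fh1 and the pyruvate dehydrogenase subunit Pdha1, which fell by 0.38 and 0.23. Of mitochondrial ribosomal proteins 17 of 77 fell (median -0.22), with Mrps23, Mrpl18 and Mrpl27 first by p. Of import and cristae genes 3 of 20 fell (Tomm20, Tomm22 and Timm17b; median -0.21). Cytosolic ribosomal proteins, which are not mitochondrial, had a like median of -0.20, with 7 of 87 lower, so a median of this size was not found in respiratory genes alone. Nothing in these 4 lists rose. With scaling by total counts 2, 5, 2 and 0 genes of the 4 lists were lower, where 4.57% of all genes were, with all 4 medians still negative. Without KO media replicate 1 the numbers were 3, 5, 2 and 1, and without KO gel replicate 1 they were 4, 5, 2 and 1. Of all genes 6.14% and 4.88% were lower in these fits, in that order.

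The genes that build and feed the complexes were mixed. Of 48 assembly factors tested 5 fell in KO gel against KO media (Bcs1l, Coa3, Cox15, Ndufaf7 and Sdhaf4) and 1 rose (Ttc19, a complex III factor, by 0.57). The median was -0.11, and 9.74% of all genes were lower. Without KO gel replicate 1 or KO media replicate 2 none of the assembly factors was lower, where 4.88% and 7.55% of all genes were. Among electron carriers and ubiquinone synthesis, 3 of 18 fell (Coq7, Dhodh and Etfa) and Etfdh rose by 0.22. Of the 18, 1 was lower with total counts, without any 1 of the 3 KO gel libraries, or without KO media replicate 2. In these fits 4.57 to 7.55% of all genes were lower. Of 15 regulators of respiratory genes 2 fell: Tfam, which packages and transcribes mitochondrial DNA, by 0.29 ± 0.05 (SE, adjusted p = 0.00232, edgeR), and Tfb1m, a methyltransferase of mitochondrial ribosomal RNA, by 0.69 ± 0.15 (SE, adjusted p = 0.00623, edgeR). Tfam averaged 47.3 CPM in KO gel, 57.7 CPM in KO media, 56.6 CPM in WT gel and 58.7 CPM in WT media, and was lower in KO gel than in WT gel too, by 0.26 (adjusted p = 0.00562, edgeR). Against WT gel the regulator Polg was also lower, by 0.24, and Gabpb1 was higher, by 0.22. Of the 48 assembly factors 3 were higher there (Ttc19, Cox20 and Ndufaf4) and 0 lower. Of all genes 7.71% were lower and 7.12% higher in that comparison. Ndufab1, a complex I subunit whose symbol falls outside the rule, had a log2 fold change of -0.05 and did not pass.

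Per length, the nuclear subunits of complex IV were the most abundant, with a median over genes (annotated copies and tissue forms left out) of 108 RPKM for the principal transcript and 73.3 RPKM for all exons. Complex I was lowest by both lengths, at 44.8 and 27.0 RPKM. The order of the others depended on the length: complexes V, II and III had medians of 88.3, 69.9 and 68.8 RPKM by the principal transcript, and 30.7, 44.3 and 33.9 RPKM by all exons. These levels vary widely within a complex, in complex V from 14.2 RPKM (Atp5g1) to 335 RPKM (Atp5b) by the principal transcript.

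Some counts cannot be assigned to 1 gene with certainty. Ndufs6b, Cox6c2, Ndufb4c and Ndufa11b are annotated as processed pseudogenes in GENCODE M21 and are 96.6%, 97.0%, 100% and 94.8% identical to Ndufs6, Cox6c, Ndufb4 and Ndufa11, so reads of the pairs could have been exchanged; none of the 4 passed in any comparison. The exons of another 27 members overlap those of another gene, mostly on the opposite strand, Ndufb6 over 39.0% and Ndufa13 over 30.0% of its length, and Cox5a over 12.8%. On the same strand Ndufb9 overlaps another gene over 19.5%, and a second GENCODE entry of the symbol Atp5o overlaps Donson over 54.2% of that entry's exons. Atp5g2 overlaps the microRNA gene Mir688 on the same strand, over 4.5%. The sources used here do not state the strand setting of the counting, so reads of such pairs cannot be told apart, and those of a same-strand pair cannot be with any setting. Without the copies and the overlapping genes, 15 of 52 fell in KO gel against KO media, 1 rose, and the median was -0.23. Atp5g2 is among the genes left out there. Of the 52, 1 was lower in KO gel than in WT gel, and 0 passed for the difference of gel responses.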

How the data were processed

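Bulk RNA was measured in 12 libraries of 4 groups, 3 mice each. Per the labels' protocols, ribosomal RNA was depleted (RiboCop) and libraries were made with KAPA RNA HyperPrep from 150 ng of RNA. The deposited table holds raw counts per gene symbol; per the submitters' processing notes it was made with HISAT2 and featureCounts on GRCm38, with versions, annotation and strand setting not given in the sources used here. Totals ran from 28483064 to 61390702 counts.

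Counts were filtered with filterByExpr (19010 genes kept) and scaled by TMM. The quasi-likelihood F test of edgeR 4.0.16 (R 4.3.3, limma 3.58.1) used 1 model of the 4 groups, with Benjamini-Hochberg adjustment over all genes; a call is an adjusted p under 0.05. CPM are scaled by TMM, log2 CPM used a prior count of 2, and SE is the absolute log2 fold change over the square root of F. DESeq2 1.42.0, limma-voom, other scalings and filters, a replicate block and fits leaving out libraries were alternatives. RPKM used GENCODE M21 lengths.

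Same-numbered libraries deviated together between WT gel and WT media (correlations of 0.24 to 0.80) and between KO media and WT media (0.17 to 0.38). Each of these was over 0.1, and equal numbers were taken as paired in these groups. That reading comes from the data, as the labels state no shared mouse or day. KO gel was not taken as paired with KO media (-0.04 to 0.20) or with WT gel (-0.45 to 0.15). The ranges of KO media with WT media and with KO gel overlap, so the correlations cannot settle which groups were paired.

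The member genes and the other gene lists were chosen with earlier results of these data known. Named were the catalytic and core subunits, the c subunit and isoform families, the genes of smallest p per complex and of largest and smallest change, and up to 3 genes per other list in order of p; further called genes are named to complete a count and were chosen after their values were seen.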

Additional observations from a re-analysis of the deposited data

Results flagged for a closer look

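Atp5g2, a gene of the ATP synthase c subunit, was singled out because its gel response differed between the genotypes by a test of the difference itself. The KO gel response minus the WT gel response was -0.58 on the log2 scale (SE 0.14, adjusted p = 0.0370, edgeR). It lost the call in 10 of the 12 fits that left out 1 library, with adjusted p from 0.00239 to 0.0979 over these fits, and in 3 of the 8 other alternatives, with adjusted p from 0.000342 to 0.140 over all 20. The direction was the same in all of them. Called on the negative side were 1.2% of the 83 genes and 1.45% of all genes tested. Exons of Atp5g2 overlap those of Mir688 on the same strand, over 4.5%.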

How the results depend on the processing

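In KO gel against KO media, where 28 subunit genes passed, the number was 5 with scaling by total counts, 49 with every gene of at least 1 count, 6 among higher-level genes (mean log2 CPM of 3 or more), 50 with the 6 libraries compared alone, 4 without the libraries rich in ribosomal RNA, and 16 without annotated copies and overlapping genes; this last alternative was chosen after seeing the data and counts fewer genes. Leaving out 1 library gave 4 to 26, with the shares given above. With every gene of at least 1 count, 57.8% of subunit genes were lower, where 7.49% of all genes were. With the 6 libraries alone, 59.0% of subunit genes and 15.6% of all genes were lower. In KO gel against WT gel (2 calls) the number was 8 by the DESeq2 Wald test, 18 with every gene of at least 1 count, 8 with the 6 libraries alone, and 2 to 10 leaving out 1 library. In the first 3 of these, 9.64%, 21.7% and 9.64% of subunit genes were lower. Of all genes 8.66%, 5.16% and 8.8% were lower there, so the shares by DESeq2 and with 6 libraries were near those of all genes. For the difference of gel responses (1 call) it was 0 with total counts, 0 among higher-level genes, 0 without the libraries rich in ribosomal RNA, 2 by DESeq2, 7 with every gene of at least 1 count, and 0 to 17 leaving out 1 library. By DESeq2 2.41% of subunit genes were on the negative side, where 2.98% of all genes were. With every gene of at least 1 count, 8.43% of subunit genes and 1.99% of all genes were. Without annotated copies and overlapping genes, which leaves out Atp5g2, 1 passed in KO gel against WT gel and 0 for the difference of responses. In KO media against WT media (0 calls) it was 1, Uqcrb, with every gene of at least 1 count, and 0 to 1 leaving out 1 library. In WT gel against WT media it was 0 in 15 alternatives and 9 with the replicate block within 6 libraries, which was added after seeing the data. Among the other gene lists, the median of the regulators in KO gel against KO media became 0.02 among higher-level genes, from -0.05. The causes were not tested.

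KO gel was not taken as paired with other groups by replicate number. With the replicate block in the 12-library fit, 38 subunit genes passed in KO gel against KO media, 10 in KO gel against WT gel and 2 for the difference of responses; 3 of 6 and 2 of 6 libraries correlated best with their own number in the first and the second. Called lower with the block were 44.6%, 12.1% and 2.41% of subunit genes in these comparisons, in that order. Of all genes 13.2%, 10.1% and 2.54% were lower there. The block changed no other count of called subunit genes. With it, in KO gel against KO media, 33 of 87 cytosolic ribosomal, 31 of 77 mitochondrial ribosomal, 11 of 18 tricarboxylic acid cycle and 6 of 20 import genes were lower. Of the mitochondrially encoded genes 6 of 13 were higher. Of all genes 13.2% were lower and 13.3% higher in that fit.

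Scaling by total counts moved the median of all genes to 0.10 in KO gel against WT gel and to 0.12 for the difference of responses; relative to it the subunit medians were -0.11 and -0.14. In KO gel against KO media 3 of the 83 genes changed sign in at least 1 alternative, none of them called; in KO gel against WT gel 39 did (26 with total counts), in KO media against WT media 49, in WT gel against WT media 52 and for the difference of responses 30. Ndufv3 in KO gel against KO media became -0.013 with every gene of at least 1 count and -0.096 to 0.108 leaving out 1 library. Atp5g1 in KO gel against KO media, at -0.002, became 0.034 with total counts, 0.007 with DESeq2 size factors, 0.007 by the DESeq2 Wald test, 0.001 with limma-voom, 0.07 among higher-level genes, 0.007 with 6 libraries, 0.003 with the block, and -0.062 to 0.057 leaving out 1 library. The medians of the subunit genes moved by less than 0.14, the pooled SD of library medians, in every alternative, which does not fix their sign outside KO gel against KO media.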
